A study of Rattus norvegicus with 32 samples.

Results

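Phospholipase C genes were followed in surviving CA3 hippocampal neurons of Sprague-Dawley rats. Members were the probes whose symbol in the platform's probe-to-gene table was Plcb1, Plcb2, Plcb3, Plcb4, Plcd1, Plcd3, Plcd4, Plcg1, Plcg2 or Plce1. This gave 12 probes for 10 genes, among 33849 probes and 12573 named genes on the array, with 2 probes each for Plcg1 and Plcd3. Neurons were captured by laser from frozen sections of rats given sham injury, fluid percussion traumatic brain injury (TBI) with saline, TBI with metyrapone (TBI+MT, 100 mg/kg), or TBI with carbenoxolone (TBI+CB, 30 mg/kg), and brains were taken at 4 h or 24 h. Metyrapone blocks glucocorticoid synthesis, and carbenoxolone inhibits 11-beta-hydroxysteroid dehydrogenase. Per the labels, saline or drug was given subcutaneously 90 min before TBI, whereas the study's methods give a shorter interval. The labels call the sham 4 h samples untreated, while the methods give shams saline. Each of the 8 groups had 2 samples, each a pool of RNA from 3 to 6 rats, and each sample was hybridized to 2 arrays, for 32 arrays in all. The methods state that neurons without Fluoro-Jade staining, a dye for degenerating neurons, were chosen for capture.

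Phospholipase C enzymes cut the membrane lipid phosphatidylinositol bisphosphate into inositol trisphosphate, which releases calcium from internal stores, and diacylglycerol, which activates protein kinase C. The beta enzymes are switched on by Gq-coupled receptors, such as the group I metabotropic glutamate and muscarinic receptors of hippocampal neurons. The gamma enzymes are switched on by receptor tyrosine kinases such as the BDNF receptor TrkB, the delta enzymes respond to calcium, and the epsilon enzyme to Ras family GTPases.

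Promoter windows are shown for Plcg1, Plcb1 and Plcd3, since probes of these genes gave the highest correlations with each other across samples. The windows come from RefSeq (build GRCr8), run 5′ to 3′ and cover 250 bases before to 50 bases after the gene start. Plcg1 lies at chr3:169805049-169805348 on the + strand, Plcb1 at chr3:142512515-142512814 on the + strand and Plcd3 at chr10:88548020-88548319 on the - strand. Capitals mark Sp1 motifs (GGGCGG, or CCGCCC on the other strand).
Plcg1: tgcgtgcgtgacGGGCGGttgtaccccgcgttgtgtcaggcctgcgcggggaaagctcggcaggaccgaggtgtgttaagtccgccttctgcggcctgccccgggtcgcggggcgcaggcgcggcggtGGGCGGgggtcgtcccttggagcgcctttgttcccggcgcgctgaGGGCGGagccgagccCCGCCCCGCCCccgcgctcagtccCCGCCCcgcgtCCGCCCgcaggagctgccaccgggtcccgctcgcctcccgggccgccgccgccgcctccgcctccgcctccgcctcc
Plcb1: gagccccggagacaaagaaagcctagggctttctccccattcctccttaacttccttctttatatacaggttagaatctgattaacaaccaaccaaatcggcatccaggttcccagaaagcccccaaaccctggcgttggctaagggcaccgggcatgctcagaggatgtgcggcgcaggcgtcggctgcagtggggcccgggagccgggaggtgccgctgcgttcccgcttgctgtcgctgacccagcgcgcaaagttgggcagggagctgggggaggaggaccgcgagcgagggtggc
Plcd3: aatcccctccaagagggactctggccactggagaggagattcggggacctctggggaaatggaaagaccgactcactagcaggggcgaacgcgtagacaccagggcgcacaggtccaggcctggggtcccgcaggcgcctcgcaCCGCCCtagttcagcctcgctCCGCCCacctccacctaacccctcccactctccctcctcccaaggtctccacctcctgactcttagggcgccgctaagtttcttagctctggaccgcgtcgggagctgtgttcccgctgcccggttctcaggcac
The Plcg1 window held 7 matches to the Sp1 letters, counting overlaps, the Plcd3 window 2 and the Plcb1 window 0. Of all 33469 promoter windows, 33.1% held at least 1. The glucocorticoid receptor half-site (TGTTCT, either strand) was in 20.7% of all windows and the CREB motif TGACGTCA in 1.83%. Neither was in the 8 windows available for the members (Plcb1, Plcb3, Plcb4, Plcd1, Plcd3, Plcd4, Plcg1 and Plcg2). Plcb1 and Plcb4 are neighbours on chromosome 3, with 0 protein-coding genes between them in this assembly.

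Levels are given as the raw intensity divided by the median of its array, so that 1 is the array median, and duplicate arrays were averaged. Tests used the 17635 of 33849 probes that exceeded background on each of the 4 arrays of 1 group or more. Among the members, 8 of 12 probes were kept. The Plce1 probe was above background on 0 of 32 arrays, the Plcb2 probe on 2, the Plcg2 probe on 6 and the Plcd3 probe GE1168896 on 9, and these 4 were not tested. Their levels stayed at or below 1.2 in the 16 samples. A probe that was not well above background does not show that its gene was low, since probes differ in how well they bind. Plcd3 probe GE1168896 stayed at or below 1.14, whereas Plcd3 probe GE19146 read 5.96 to 53 in the same samples.

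The arrays differed in overall signal. The share of probes above background ranged from 27.4% to 64.5% over the 16 samples, and 1 sample of each 24 h drug group was low (27.4% in TBI+MT 24 h sample 1, and 30.1% in TBI+CB 24 h sample 2). Slide numbers in the file headers fall into 3 series. The first held 3 samples (both sham 4 h samples and TBI 4 h sample 1). The second held 9, among them the sham and TBI samples of 24 h, and the third 4 (both 24 h drug groups). At 24 h, a difference between a drug group and TBI therefore cannot be told apart from one between slide series. Of the 5 pyramidal neuron markers with a probe, Slc17a7, Camk2a and Grik4 were above background on 32 arrays, whereas Neurod2 was on 4 and Snap25 on 0. Of the 6 interneuron markers, Gad1 was above background on 31 arrays, Pvalb and Vip on 29, Sst on 14, Slc32a1 on 4 and Gad2 on 1. Glial markers were present too, with Slc1a3, Gfap, Mag and Cnp above background on 32 arrays, whereas Slc1a2 was on 11 and Mbp on 3. The 7 astrocyte markers summed to 144 and 256 in the sham 4 h samples, 226 and 505 in TBI 4 h, 221 and 208 in TBI+CB 4 h, and 100 and 179 in TBI+MT 4 h. The 6 oligodendrocyte markers summed to 95.7 and 219, 144 and 193, 157 and 127, and 112 and 112 in the same order. The astrocyte sum was led by Slc1a3, which alone ranged from 35.3 to 349. Microglial and vessel markers were present as well. Of the former, Csf1r and Itgam were above background on 31 arrays and Cx3cr1 on 28, with P2ry12 on 1 and Ptprc on 0. Of the latter, Pecam1 and Flt1 were on 32 and Cldn5 on 31, with Rgs5 on 4 and Kdr on 0. The 9 microglial markers summed to 28.1 and 52.9 in the sham 24 h samples and 108 and 84.9 in TBI 24 h. They summed to 112 and 88.1 in TBI+CB 24 h, and 90.4 and 63.6 in TBI+MT 24 h. All 9 had a higher mean in TBI than in sham at 24 h (median log2 difference 1.52). At 4 h, 3 were higher and 6 lower. The part of other cell types in the results was not tested, and fewer cells of a type cannot be told apart from less RNA per cell in pooled RNA.

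The 2 probes for Plcg1, the gamma enzyme that is used widely downstream of growth factor receptors, are both annotated to the same transcript and were above background on 32 of 32 arrays. Probe GE20234 read 16.3 and 19.0 in the sham 4 h samples, 30.2 and 46.1 in TBI 4 h, 14.3 and 20.6 in TBI+CB 4 h, and 10.1 and 19.5 in TBI+MT 4 h. Both TBI 4 h samples lay above the other 6 samples of that time point. At 24 h it read 19.4 and 6.86 in sham, 9.52 and 12.4 in TBI, 22.2 and 7.89 in TBI+CB, and 3.71 and 15.9 in TBI+MT. The 24 h groups overlapped. The samples of sham, TBI+CB and TBI+MT lay further apart than the group means did, whereas those of TBI lay closer together.

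Probe GE1281412 read 191 and 198 in the sham 4 h samples, 147 and 249 in TBI 4 h, 190 and 172 in TBI+CB 4 h, and 214 and 129 in TBI+MT 4 h. Here the TBI 4 h samples were the second lowest and the highest of the 8, and enclosed both sham and both TBI+CB samples. At 24 h it read 198 and 168 in sham, 206 and 197 in TBI, 159 and 87.6 in TBI+CB, and 130 and 163 in TBI+MT. Both samples of each drug group lay below both TBI samples at 24 h, where the drug groups were also on another slide series than TBI. The levels of the probes are not comparable with each other, so that their changes were compared. These changes may carry array signal unequally, since the share of probes above background correlated with GE20234 at r = 0.79 and with GE1281412 at 0.22.

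**Figure D1:**
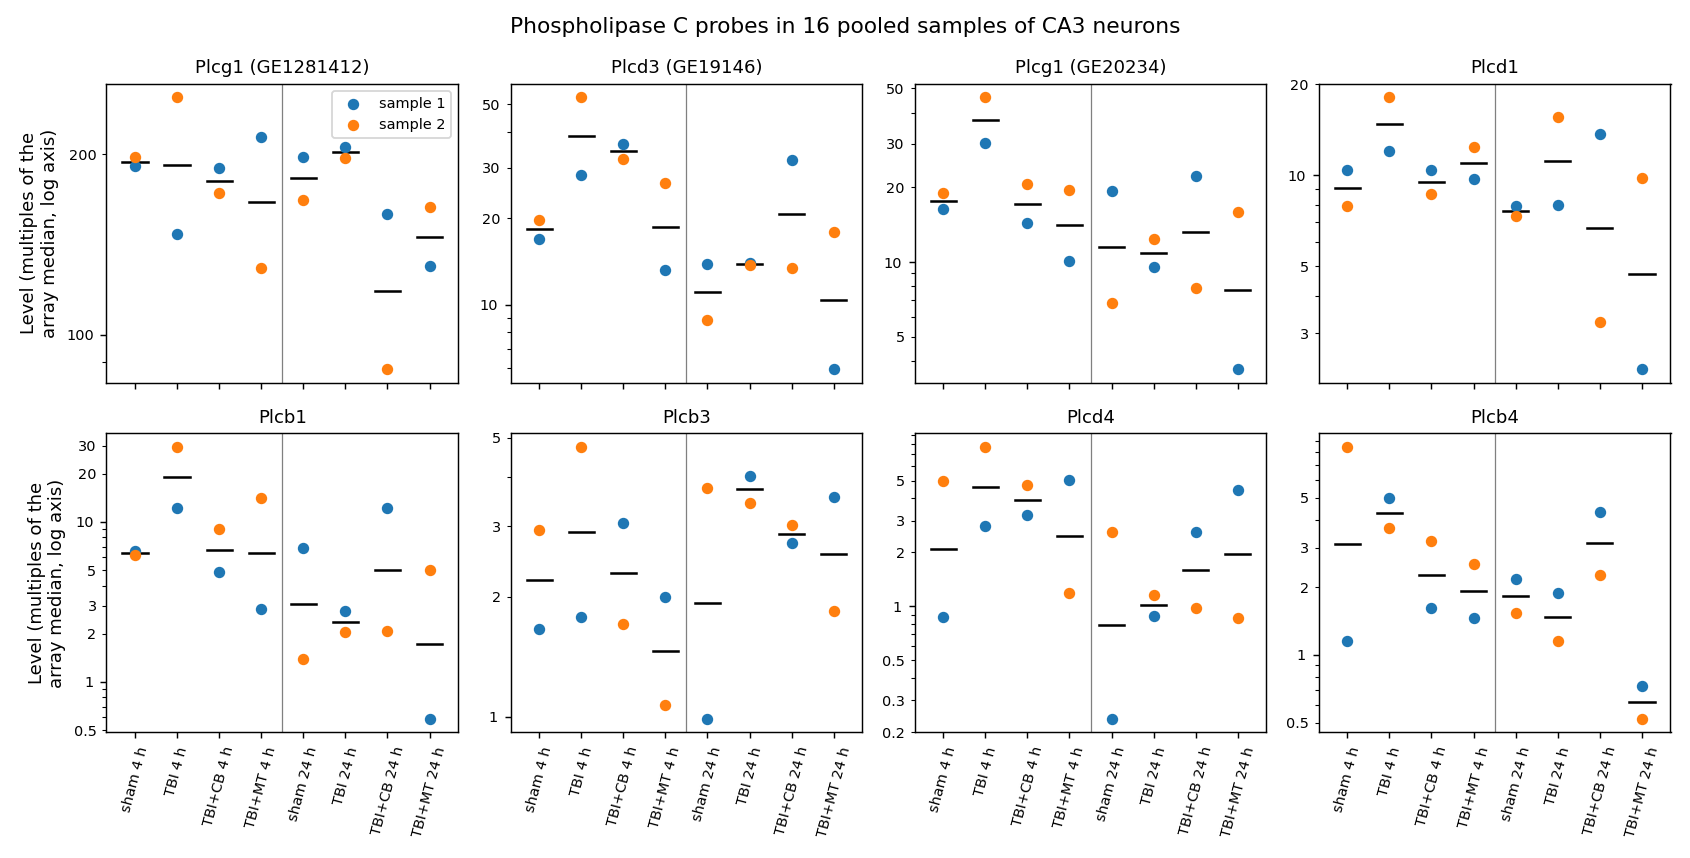
Levels of the 8 kept phospholipase C probes (multiples of the array median, log axis) in the 8 groups; each point is a sample, the bar is the geometric mean of 2 samples, and the vertical line separates 4 h from 24 h. Plcg1 probe GE20234 had both TBI 4 h samples (30.2 and 46.1) above the other 4 h samples, whereas the TBI 4 h samples of probe GE1281412 (147 and 249) enclosed the sham samples.

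For TBI against sham at 4 h, the log2 fold change was 1.09 for GE20234 (SE 0.77, limma adjusted p = 0.936) and -0.02 for GE1281412 (SE 0.49, adjusted p = 0.996). The 95% interval ran from -0.6 to 2.77 for the former and from -1.08 to 1.04 for the latter. For TBI+MT against TBI at 4 h, the values were -1.41 (SE 0.77) and -0.2 (SE 0.49), with adjusted p = 0.736 and 0.912. For TBI+CB against TBI at 4 h, they were -1.12 and -0.08, with adjusted p = 0.957 and 0.979. Neither probe passed the test in any comparison. The small values of GE1281412 for the drugs at 4 h changed sign with the scaling of the arrays, to 0.38 for TBI+MT and 0.21 for TBI+CB after quantile normalization, whereas GE20234 kept its signs.

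Unequal changes of the 2 probes show as a shift between groups in the distance between them. This distance was the log2 level of GE1281412 minus that of GE20234 in each sample. It was 3.55 and 3.38 in sham 4 h and 2.29 and 2.44 in TBI 4 h, 3.74 and 3.06 in TBI+CB 4 h, and 4.4 and 2.73 in TBI+MT 4 h. Both TBI 4 h values lay below the other 6 values at 4 h. The mean difference between TBI and sham at 4 h was -1.11, that between TBI+MT and TBI was 1.2, and that between TBI+CB and TBI was 1.04 (two-sided exact permutation test over 4 samples, p = 0.333 in each, the smallest p that 6 arrangements allow). At 24 h, the groups did not overlap for TBI+CB against TBI (-1.06, exact p = 0.333). In the other 4 of 8 comparisons the exact p was 0.667 or 1. After Benjamini-Hochberg adjustment over the 8 comparisons, the lowest value of these exact tests was 0.666. The largest distance, 5.13, was in TBI+MT 24 h sample 1, which had the lowest share of probes above background (27.4%). TBI 4 h sample 1, with 2.29, had a share of 61.4%, and TBI 4 h sample 2, with 2.44, had 48.2%. The part of array signal in these distances was not tested.

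**Figure D2:**
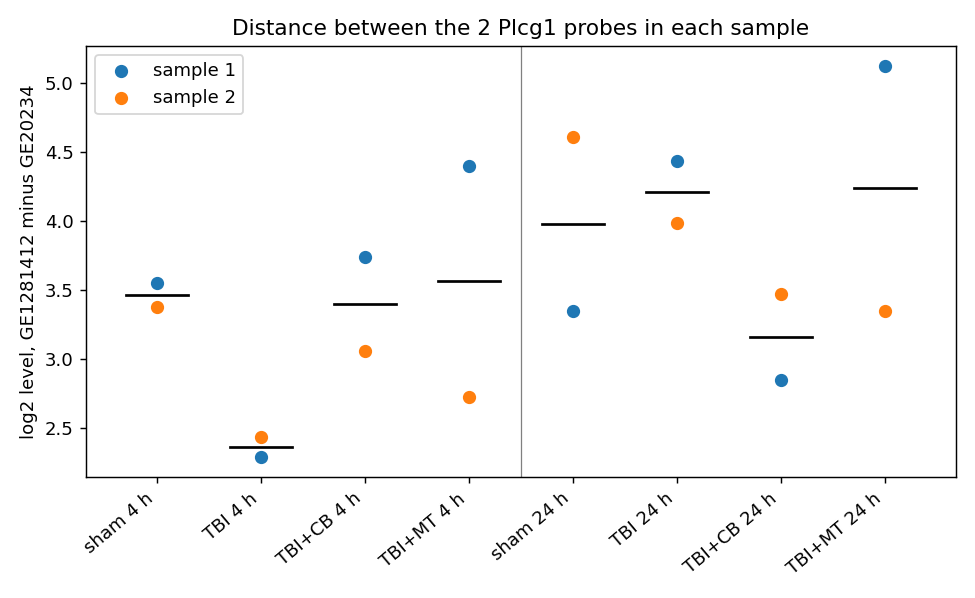
Log2 level of Plcg1 probe GE1281412 minus that of probe GE20234 in each sample (points), with the mean of 2 samples as a bar, by group. The TBI 4 h samples (2.29 and 2.44) sit below the other 4 h samples, and the 24 h drug samples spread from 2.85 to 5.13.

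Among the beta enzymes, Plcb1, which is abundant in hippocampal pyramidal cells, had the highest fold changes at 4 h. Its probe comes from the sequence of the beta 1b splice form. Its level was 6.4 ± 0.244 (SD, n = 2) in sham 4 h, 20.8 ± 12.1 in TBI 4 h, 6.97 ± 3.01 in TBI+CB 4 h and 8.53 ± 8.04 in TBI+MT 4 h. The log2 fold change was 1.57 for TBI against sham (SE 1.18, limma adjusted p = 0.936), -1.52 for TBI+CB against TBI and -1.58 for TBI+MT against TBI. Leaving out 1 sample in turn moved these to 0.94 to 2.2, -2.15 to -0.89 and -2.74 to -0.42. The samples did not overlap in the former 2 comparisons and overlapped in the third. At 24 h it was 4.13 ± 3.87 in sham, 2.4 ± 0.507 in TBI, 7.16 ± 7.19 in TBI+CB and 2.8 ± 3.13 in TBI+MT, so that the SD was near or above the mean in 3 of these 4 groups.

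Plcb3, a widely expressed beta enzyme, kept within a range of 0.989 to 4.74 over the 16 samples. It read 2.29 ± 0.894 in sham 4 h and 3.26 ± 2.09 in TBI 4 h, and 2.37 ± 1.95 in sham 24 h and 3.72 ± 0.411 in TBI 24 h. The groups overlapped at both times. Over the 16 samples its level correlated with the share of probes above background at r = -0.59.

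Plcb4, the beta enzyme best known from Purkinje cells, thalamus and retina, was the only member with an unadjusted p under 0.05 in any comparison. It read 1.15 and 8.42 in the sham 4 h samples, 5 and 3.68 in TBI 4 h, 1.62 and 3.21 in TBI+CB 4 h, and 1.46 and 2.53 in TBI+MT 4 h. At 24 h it read 2.19 and 1.53 in sham, 1.89 and 1.16 in TBI, 4.34 and 2.28 in TBI+CB, and 0.73 and 0.52 in TBI+MT. The TBI+MT 24 h samples were the lowest of the 16, and the probe was above background on 0 of their 4 arrays. With TBI+MT 24 h set to the dimmest signal above background on its arrays, the TBI+CB 24 h mean was at least 2.39-fold higher. TBI+CB 24 h was itself above background on 3 of 4 arrays. This bound and those below are on group means and leave out the spread between samples. The fitted log2 difference was -2.35 (TBI+MT minus TBI+CB, SE 0.81, unadjusted p = 0.0132, limma adjusted p = 0.786).

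Of the delta enzymes, Plcd3 was read by a kept probe (GE19146) on 32 of 32 arrays. Its level was 18.4 ± 1.98 (SD, n = 2) in sham 4 h, 40.7 ± 17.4 in TBI 4 h, 34.3 ± 2.85 in TBI+CB 4 h and 19.9 ± 9.48 in TBI+MT 4 h. For TBI against sham the log2 fold change was 1.08 (SE 0.65, limma adjusted p = 0.936), and for TBI+MT against TBI it was -1.05 (SE 0.65, adjusted p = 0.736). The samples did not overlap in either. For TBI+CB against TBI it was -0.18, and it turned to 0.31 after quantile normalization. The TBI+MT samples lay below the TBI+CB samples at 4 h, by 0.87 on the log2 scale (fitted difference -0.87, SE 0.65, adjusted p = 0.999). The other Plcd3 probe, GE1168896, was near background and could not be set beside it.

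Plcd1 read 9.14 ± 1.73 in sham 4 h, 15.1 ± 4.33 in TBI 4 h, 9.55 ± 1.26 in TBI+CB 4 h and 11 ± 1.9 in TBI+MT 4 h. At 24 h its lowest values, 2.29 and 3.28, were in the samples with the lowest share of probes above background of TBI+MT and TBI+CB. Plcd4 ranged from 0.237 to 7.68 and was above background on 21 arrays, with 0 of 4 in TBI 24 h. Its groups overlapped in each comparison, and the median gap between the samples of a group was 1.77 on the log2 scale.

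In order of mean log2 level, TBI 4 h ranked first of the 8 groups for 6 of the 8 kept probes, namely Plcb1, Plcb4, Plcd1, Plcd3, Plcd4 and Plcg1 GE20234. TBI 24 h ranked first for the other 2, Plcb3 and Plcg1 GE1281412. TBI+MT 24 h ranked last for Plcb1, Plcb4, Plcd1, Plcd3 and Plcg1 GE20234. The share of all tested probes with these ranks was not computed, so the counts are not shown to be particular to the members. The median log2 fold change over all probes at 4 h was 0.33 for TBI against sham. Against TBI at 4 h it was -0.4 for TBI+MT and -0.28 for TBI+CB, and at 24 h it was -0.39 for TBI+MT. Of the 56 pairs of neighbours in these orders, 51 overlapped. Neighbours were set by sorting on the mean, which favours overlap, and the share over all tested probes was not computed. None of the 8 probes passed the test in any of the 8 comparisons, beside 0% of all tested probes.

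For TBI against sham at 4 h, 7 of 8 kept probes had a higher mean and 4 of 8 were over 2-fold higher, beside 15.9% of all tested probes. The count of 4 fell to 1 after quantile normalization and with 75th percentile scaling. The samples did not overlap for 4 of 8 (all 4 higher), beside 36.4% of all probes. The median log2 fold change was 0.89 over the members and 0.33 over all probes, and after quantile normalization 0.42 and 0.03. At an adjusted p under 0.05, limma called 0 of 8 members and 0% of all 17613 tested probes, with 589 probes and 0 members at an unadjusted p under 0.05. With the slide series as a block, 0 of 8 were over 2-fold higher, since the block leaves TBI 4 h sample 1 alone against the sham samples. Leaving out TBI 4 h sample 2 makes the same comparison, so its count of 0 is not a second check. Without sham 4 h sample 1 the count was 1.

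For TBI+MT against TBI at 4 h, the mean was lower for 8 of 8 kept probes and over 2-fold lower for 4 (Plcb1, Plcb4, Plcd3 and Plcg1 GE20234; 1 under either of these scalings), beside 25.1% of all probes. The samples did not overlap for 3 of 8, beside 33.6%. The medians were -1.02 over the members and -0.4 over all probes, and -0.54 and -0.01 after quantile normalization. For TBI+CB against TBI at 4 h, 8 of 8 were lower and 2 were over 2-fold lower (Plcb1 and Plcg1 GE20234; again 1 under either scaling), beside 15.9% of all probes. The samples did not overlap for 4 of 8, beside 34.6%. The medians were -0.49 and -0.28, and -0.16 and 0.01 after quantile normalization. Limma called 0 members and 0% of all probes in either, with 834 and 606 probes at an unadjusted p under 0.05. These comparisons share the TBI samples with that of TBI against sham, so that 1 high TBI sample moves all 3. Leaving out TBI 4 h sample 2, or the first TBI+MT sample, lowered the TBI+MT count from 4 to 2. Leaving out TBI 4 h sample 2 or the first TBI+CB sample lowered the TBI+CB count from 2 to 1. The probes counted then were not always those named. Without the first TBI+MT sample they were Plcb3 and Plcd4, and without TBI 4 h sample 2 the TBI+CB probe was Plcb4. Over the samples left out, TBI+MT against TBI ran from -1.88 to -0.94 for Plcg1 GE20234 and from -1.56 to -0.55 for Plcd3. The interval for TBI+MT against TBI+CB included 0 for 8 of 8 probes at 4 h, with log2 differences from -0.87 to 0.2.

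**Figure D3:**
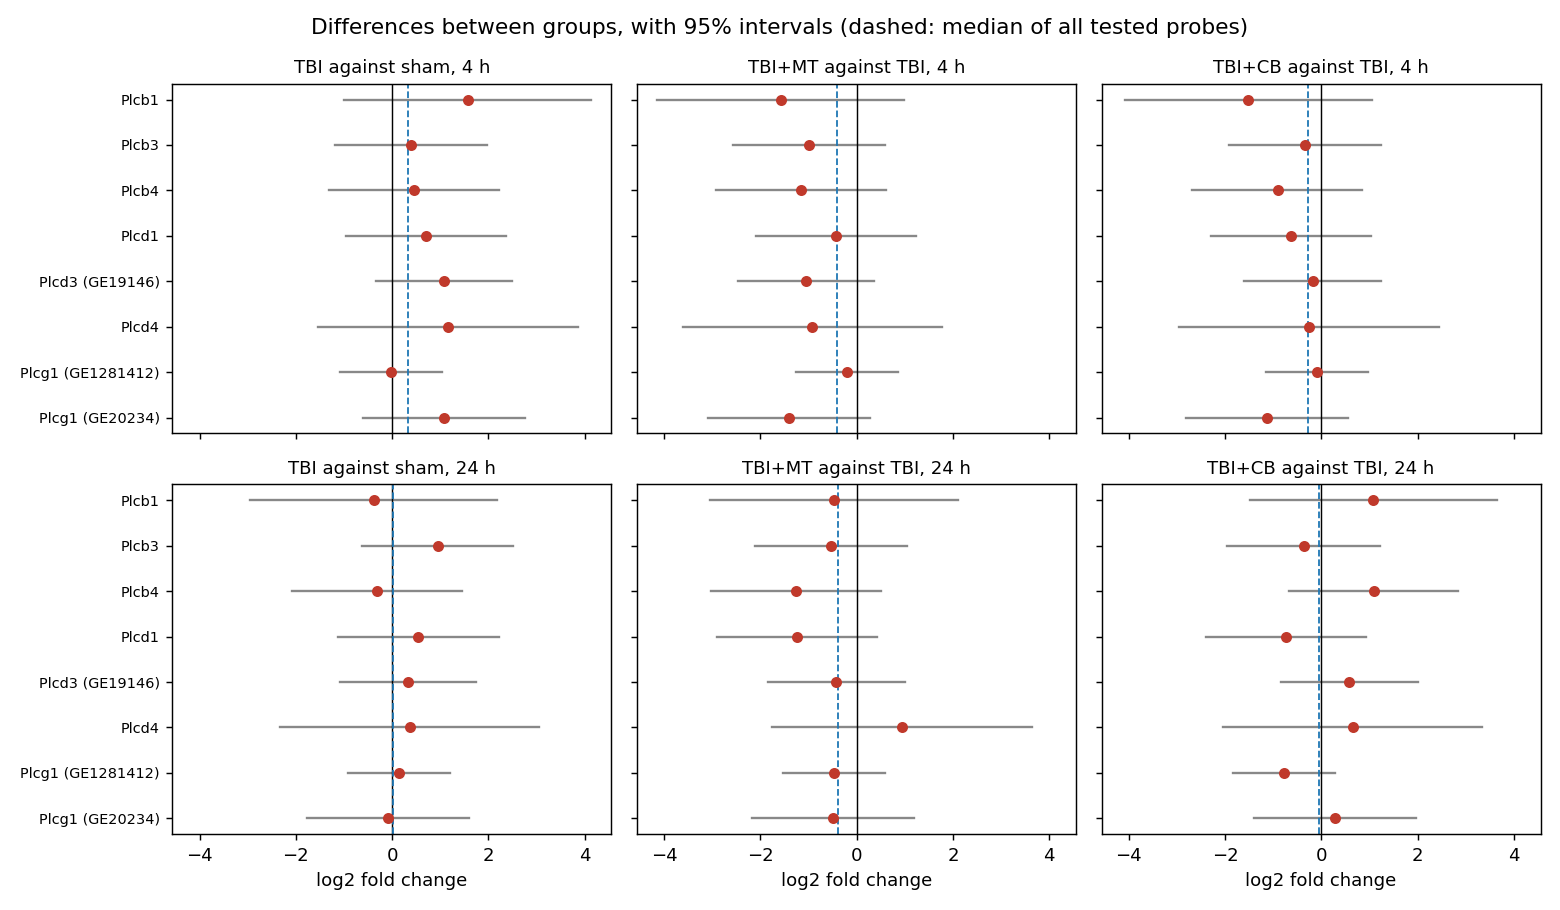
Log2 fold changes of the 8 kept probes (points) with 95% intervals from limma (lines) in 6 comparisons of 2 samples against 2; the dashed line is the median over all tested probes. All intervals shown include 0, and at 4 h the points lie to the right for TBI against sham, except GE1281412 at -0.02, and to the left for both drugs.

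For TBI against sham at 24 h, 0 of the 8 kept probes were over 2-fold higher or lower, beside 4.09% and 6.71% of all probes, and the log2 fold changes ran from -0.38 to 0.95. For TBI+MT against TBI, 7 of 8 were lower and 2 had a fitted value over 2-fold lower, beside 13.8%. These were Plcd1 and Plcb4, of which the latter was not above background in TBI+MT 24 h, so that its fold there has only a bound. For TBI+CB against TBI, 5 of 8 were higher and 2 over 2-fold higher (Plcb1 and Plcb4), beside 14.3%. Limma called 0 members and 0% of all tested probes in these and in TBI+MT against TBI+CB. At 24 h, each comparison of a drug group with TBI is also one between slide series. The differences between the times were tested as well (24 h minus 4 h): for Plcb1 they were -1.94 for TBI against sham (SE 1.67, adjusted p = 1), 1.11 for TBI+MT against TBI (SE 1.67, adjusted p = 0.98) and 2.6 for TBI+CB against TBI (SE 1.67, adjusted p = 0.574). No difference between the times passed for any member, and the share of all probes called was 0% in each.

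Across the 16 samples, some probes moved together. The Pearson r of log2 levels was 0.97 between Plcb1 and Plcg1 GE20234 (Spearman's rho 0.96), 0.9 between Plcb1 and Plcd3, and 0.88 between Plcd3 and Plcg1 GE20234. After each group's mean was removed, these were 0.96, 0.94 and 0.92. In contrast, the 2 Plcg1 probes gave r = 0.4 (rho 0.11). The median over the 28 pairs of probes was 0.3. The samples share their arrays and overall signal, and the levels of Plcb1, Plcg1 GE20234, Plcd1 and Plcd3 correlated with the share of probes above background at r = 0.82, 0.79, 0.75 and 0.64, against 0.22 for Plcg1 GE1281412. The part of array signal in these correlations was not tested. Duplicate arrays differed by a median of 0.1 on the log2 scale for the kept members, and the 2 samples of a group by 0.83 (0.13 and 0.65 over all kept probes).

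**Figure D4:**
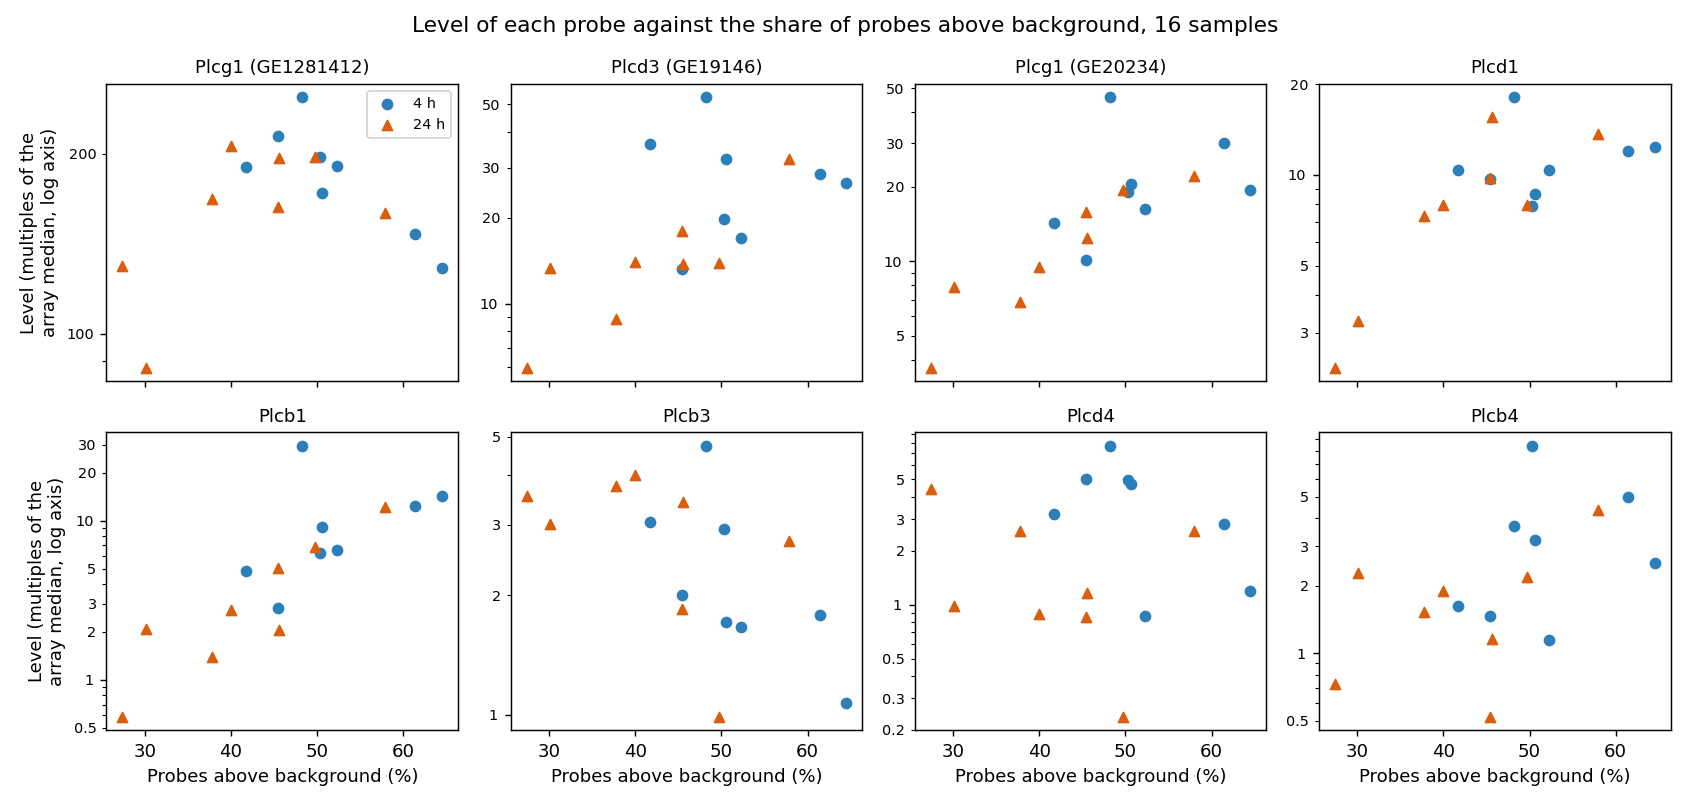
Level of each kept probe (multiples of the array median, log axis) against the percentage of probes above background in the same sample, for 16 samples at 4 h (circles) and 24 h (triangles). Plcb1 (r = 0.82 on the log2 scale) and Plcg1 GE20234 (r = 0.79) are higher where more probes are above background, and Plcg1 GE1281412 (r = 0.22) is not ordered in this way.

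The named genes with the pattern most like Plcg1 GE1281412 over the 16 samples were Dhdds (r = 0.887), Orc5 (0.887) and Rogdi (0.884). Those most like Plcb1 were Acsl1 (0.984), Lmbrd1 (0.984) and Sec63 (0.983).

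Genes that act before or after phospholipase C (128) and 8 other genes of the family were listed by role, and 76 of these 136 had a kept probe, 74 and 2 respectively. Limma called 0 of the 76 and 0% of all tested probes in each of the 8 comparisons. Between 1 and 13 of the 76 had an unadjusted limma p under 0.05. The 13 were for TBI+CB against TBI at 24 h, beside 1447 of all 17597 tested probes. For TBI+MT against TBI at 4 h it was 1, beside 834 of 17619. At 4 h, 12 of the 74 (16.2%) exceeded sham by over 2-fold in TBI, 18 (24.3%) were over 2-fold lower in TBI+MT than in TBI, and 14 (18.9%) over 2-fold lower in TBI+CB than in TBI. The shares of all probes were 15.9%, 25.1% and 15.9%, so that these counts lay near the background. Of the regulators of G protein signalling, Rgs2, which speeds the shut-off of Gq, read 26.8 ± 5.44 (SD, n = 2) in sham 4 h, 134 ± 58.6 in TBI 4 h, 98.4 ± 6.75 in TBI+CB 4 h and 51.4 ± 38.6 in TBI+MT 4 h. Its log2 fold change for TBI against sham was 2.26 (SE 0.98, limma adjusted p = 0.936). Rgs4, of the same family, read 4.98 ± 2.15 in sham 24 h and 16.2 ± 3.69 in TBI 24 h (log2 fold change 1.76, SE 0.56, adjusted p = 1).

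Upstream, the 2 kept G proteins of the Gq family had log2 fold changes near 0 at 4 h (median -0.02 for TBI against sham). For the 8 kept Gq-coupled receptors, the median log2 fold change was 0.11 for TBI against sham at 4 h and -1.09 for TBI+CB against TBI at 24 h, where 5 of 8 were over 2-fold lower. Over all probes these medians were 0.33 and -0.04, and 15.2% were over 2-fold lower in the latter comparison. Grm5, a metabotropic glutamate receptor, read 1.97 ± 0.164 in TBI 24 h and was not above background on any of the 4 TBI+MT 24 h arrays (at least 1.43-fold higher in TBI, adjusted p = 0.889). Of the 12 tyrosine kinases and adaptors upstream of the gamma enzymes, Ntrk2, the BDNF receptor, read 6.99 ± 2.73 in TBI 24 h and 1.32 ± 0.785 in TBI+MT 24 h, where 2 of 4 arrays were above background (log2 fold change -2.49, SE 0.75, adjusted p = 0.746). Pdgfrb, a receptor of pericytes, read 1.56 ± 0.85 in sham 4 h, where 3 of 4 arrays were above background, and 1.75 ± 0.338 in TBI+CB 4 h. It was above background on 0 arrays of TBI 4 h. The sham mean was at least 2.29-fold and the TBI+CB mean at least 2.75-fold higher than TBI (adjusted p = 0.75 and 0.957).

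Downstream, the 7 kept inositol trisphosphate receptor and store calcium genes were higher in TBI than in sham at 4 h in 7 of 7, with a median log2 fold change of 0.71, and lower in TBI+MT than in TBI in 7 of 7, with a median of -0.92. The medians over all probes were 0.33 and -0.4. For TBI+CB against TBI at 4 h, 2 of the 7 were higher and 5 lower. Stim2, a sensor of calcium in the endoplasmic reticulum, read 13.6 ± 1.73 in sham 4 h, 47.6 ± 23.9 in TBI 4 h and 18.5 ± 15.6 in TBI+MT 4 h (log2 fold change 1.71 for TBI against sham, SE 0.89, adjusted p = 0.936). Trpc6, a cation channel opened by diacylglycerol, was above background on 0 arrays of TBI 24 h and read 2 ± 0.636 in TBI+CB 24 h (at least 1.69-fold higher, adjusted p = 0.592). Of the 12 inositol phosphate genes, Itpkb, a kinase of inositol trisphosphate, read 3.47 ± 0.778 in TBI+CB 24 h and 0.768 ± 0.223 in TBI+MT 24 h, where 1 of 4 arrays was above background (log2 difference -2.19 for TBI+MT minus TBI+CB, SE 0.52, adjusted p = 0.764). Inpp5d, a phosphatase found mainly in blood and microglial cells, read 4.02 ± 0.311 in TBI 24 h and 1.17 ± 0.493 in TBI+CB 24 h, where 2 of 4 arrays were above background (log2 fold change -1.84, SE 0.5, adjusted p = 0.592). Of the 9 microglial markers, 4 had a higher and 5 a lower mean in TBI+CB than in TBI at 24 h, with a median log2 difference of -0.34, and their part in this result was not tested.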

How the data were processed

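RNA from laser-captured CA3 neurons was amplified in 2 rounds and hybridized to rat CodeLink arrays. The authors deposited 1 scanner file per array, with raw intensity values, a quality flag per spot and no local background column, and a table of processed intensity values, which served as an alternative. Each raw intensity was expressed as a multiple of its array's median from the file header, floored at 0.1 and transformed to log2, and irregular or masked spots were left out. Duplicate arrays were averaged to 16 samples. Of 33849 probes, 16878 had 1 gene symbol in the platform table, 182 had several and 16789 had none, and symbols were updated through gene identifiers to RefSeq (GRCr8).

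Limma (version 3.58.1, R 4.3.3) was fitted to 17635 kept probes over 8 groups (8 residual degrees of freedom, 3.88 prior), with Benjamini-Hochberg adjustment over the probes tested in a comparison and a threshold of 0.05. A probe with no value in a sample was fitted without that sample. The fit was tested on simulated data. No source names the slide series, so that they are batches is assumed. With 2 samples a group, p-values measure the spread between pooled samples, and the number of samples limits the precision. Alternatives covered scaling, floor, filters, spots, arrays, variance, slide series, replicate block and left-out samples. Per-sample values were given for the Plcg1 probes and for kept members with an unadjusted p under 0.05, other members were given by group or range, and the partner gene named for a role had the smallest p of that role in a comparison, with 1 probe per gene. Members, lists and tests were chosen with earlier results of these data known.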

Additional observations from a re-analysis of the deposited data

How the results depend on the processing

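Members called stayed at 0 in 258 of 258 results, each of them 1 comparison or difference under 1 alternative setting. For all probes, 0 were called in 224 of 258. The settings use the same 16 samples, so these results are not independent. Members over 2-fold at 4 h (main 4 higher for TBI against sham, 4 lower for TBI+MT against TBI, 2 lower for TBI+CB against TBI) were 1, 1 and 1 after quantile normalization and with 75th percentile scaling, 2, 2 and 1 among the 3 probes above background on all 32 arrays, and 2, 1 and 1 among the 3 or 4 probes whose arrays lay within 2-fold. In the last 2 settings fewer probes were tested. With the slide series as a block the first was 0. Leaving out 1 sample gave 0 to 6, 2 to 5 and 1 to 3. Probes called, over all probes, were 2 (quantile), 1 (75th percentile), 1 (floor of 0.5), 1 (no filter), 1 (arrays within 2-fold), 1 (array a), 4 (array b), 1 (32 arrays with the sample as a random block), 2 (variance trend) and 7 (without the dimmest sample of each 24 h drug group) for TBI+CB against TBI at 24 h. For its difference from 4 h they were 1 (quantile) and 2 (random block). For TBI against sham at 24 h minus 4 h there was 1 (floor of 0.01). Array a alone gave 2 for TBI against sham and 2 for TBI+MT against TBI at 24 h. Array b alone gave 1 for TBI against sham and 1 for TBI+MT against TBI+CB at 4 h, and 3 for the latter at 24 h. The random block gave 1 for TBI against sham and 1 for TBI+CB against TBI at 4 h, and 12 for TBI against sham and 1 for TBI+MT against TBI+CB at 24 h. The groups of the time point alone gave 2 for TBI against sham at 4 h, and the slide series as a block gave 46 for metyrapone and 1 for carbenoxolone after TBI at 4 h. Leaving out 1 sample gave 0 to 47 for TBI against sham, 0 to 49 for metyrapone and 0 to 1 for carbenoxolone after TBI at 4 h, 0 to 15 for TBI+CB against TBI and 0 to 1 for TBI+MT against TBI+CB at 24 h, and 0 to 1 for TBI against sham at 24 h minus 4 h. The 47 and 49 came without TBI 4 h sample 1 and the 15 without TBI+CB 24 h sample 1. A lone sample is then assumed to vary like the other groups. The cause was not tested.

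Plcg1 GE1281412 turned sign for TBI+MT against TBI at 4 h to 0.38 (quantile) and 0.24 (75th percentile), for TBI+CB against TBI to 0.21 (quantile), 0.29 (75th percentile) and 0.06 (array b), and for TBI against sham to 0.05 (array b). Plcd3 turned to 0.31 (quantile) and 0.19 (75th percentile) for TBI+CB against TBI. Leaving out 1 sample gave GE1281412 -0.4 to 0.36, -0.58 to 0.18 and -0.46 to 0.29 for injury, metyrapone and carbenoxolone at 4 h, and gave Plcd3 -0.63 to 0.27 for the last. With a replicate block, 0 members and 0 of all probes were called in the 11 comparisons and differences, and it changed no call. The numbers did not pair the samples: deviations of same-numbered samples correlated at -0.35 to 0.29 over the 8 comparisons. A crossed replicate block, with the TBI+CB 24 h numbers swapped, was added after seeing the data and also called 0 members and 0 of all probes. Normexp background correction was not run, since the files hold no local background column. Dim probes near background limit Plcb4 and Plcd4 to bounds in the groups named.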
